A study of Mus musculus with 6 samples.

Results

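The annexins are a family of calcium-dependent, phospholipid-binding proteins, and 8 of their genes (Anxa1, Anxa2, Anxa3, Anxa4, Anxa5, Anxa6, Anxa7 and Anxa11) were described here in mouse neutrophils. The members were taken by gene symbol, and each matched 1 of the 52636 rows of the expression table. A further 4 annexin genes are listed in the table and are given below for completeness. Bulk RNA of bone marrow neutrophils from C57BL/6N mice aged 10 weeks was sequenced in 6 libraries, 3 from WT mice and 3 labelled LRP5-KO, whose genotype is given as LRP5f/f/Lyz2Cre+ (floxed Lrp5 alleles with a Cre recombinase under Lyz2). LRP5 is a receptor of the LDL receptor family that the study examined as a carrier of polyunsaturated fatty acids, and the comparison asks which transcripts differ when Lrp5 is targeted in myeloid cells. The Cre gene sits in Lyz2, which is active in monocytes and macrophages as well as in neutrophils, so the deletion is not limited to neutrophils. The labels do not give the number of mice behind a library, and the p-values measure only the spread between these libraries. Values are TPM, the abundance of transcripts scaled to a fixed total per library, which are already divided by transcript length and can be compared between genes.

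Annexins share a core that binds membrane phospholipids when calcium rises, and differ in the tail that precedes it. In neutrophils they are known for the fusion of granules with the plasma membrane, for the repair of membrane wounds and, in the case of Anxa1, for ending inflammation. Anxa1 is induced by glucocorticoids, is released by activated neutrophils and signals through the formyl peptide receptor Fpr2. Anxa2 forms a complex with S100a10, Anxa1 binds S100a11, Anxa7 binds sorcin (Sri), and Anxa11 binds S100a6 and the calcium sensor ALG-2 (Pdcd6). Anxa5 binds phosphatidylserine and is used as a probe for dying cells.

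Before the annexins, the libraries were checked against their labels. Lrp5 was at 1.12, 1.31 and 1.42 TPM in WT replicates 1 to 3 and at 1.68, 1.77 and 2.07 TPM in the libraries labelled LRP5-KO. The targeted transcript was thus not lower but higher in the latter, without overlap (log2 fold change 0.31, limma adjusted p = 0.136). It was called in 0 of 16 alternatives and was above 0 in all 16. Lyz2, the gene that holds the Cre insertion, was at 26791, 26300 and 24797 TPM in WT and at 14027, 13989 and 13360 TPM in the libraries labelled LRP5-KO. It was called there (log2 fold change −0.91, limma adjusted p = 0.00351) and in 16 of 17 alternatives, the exception being that without a filter (0.123). A TPM of the whole Lrp5 gene does not show from which exons the reads came, and every direction below rests on the labels. Of the 13 neutrophil markers listed, all 13 passed the filter on low values described below, with Ly6g between 920 and 1104 TPM. The read summary lists between 249841492 and 340580330 reads per library. It gives an insert size, which only paired reads have, where the methods name single-end reads, so whether a pair counts as 1 read is not known. The ribosomal share of reads was lowest in WT replicates 1 and 2, at 1.20% and 1.30%, while WT replicate 3 stood at 3.30%, near the 2.69% to 2.98% of the other label. Intronic reads separated the labels, at 7.78% to 9.0% in WT and 10.62% to 11.23% in the libraries labelled LRP5-KO, as did coding and UTR reads, at 83.84% to 87.03% and 81.85% to 82.41%. WT replicate 1 stood apart in the ratio for bias at the 5′ end, at 0.571 against 0.502 to 0.521 in the other libraries. At the 3′ end it stood at 0.194 against 0.231 to 0.257, and its coverage variation score was 0.186 against 0.164 to 0.171. The part of these shares and scores in the annexin values was not tested. Leaving out WT replicate 3 raised the number of genes called in the test below from 52 to 1920.

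Anxa1 was the most abundant annexin in all 6 libraries, followed by Anxa2 in all 6. The means over the libraries were 6007 ± 221 TPM for Anxa1 and 1422 ± 55.8 TPM for Anxa2 (SD, n = 6 libraries of both groups). Anxa1 stood at rank 14 of all rows of the table by mean TPM and Anxa2 at rank 45. Next came Anxa3 at 228 ± 4.65 TPM and Anxa11 at 186 ± 39.0 TPM, then Anxa5 at 80.5 ± 5.94 TPM, Anxa6 at 73.6 ± 5.03 TPM and Anxa7 at 61.1 ± 10.1 TPM, and last Anxa4 at 3.93 ± 0.36 TPM (SD, n = 6 each). Together the 8 transcripts made up 0.774% to 0.834% of the transcripts of a library, and Anxa1 alone held 72.9% to 75.9% of that sum.

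Some neighbours in this order were not separated by more than their spread. The ratio of Anxa3 to Anxa11 ran from 0.886 to 1.60 across libraries, with Anxa11 above Anxa3 in LRP5-KO replicate 1. Anxa5 exceeded Anxa6 in all 6 libraries, but by a ratio that came down to 1.002. Anxa6 exceeded Anxa7 in 5 of 6 libraries and was below it in WT replicate 1. The steps from Anxa1 to Anxa2 (ratio 3.86 to 4.52), from Anxa2 to Anxa3 (5.91 to 6.80) and from Anxa7 to Anxa4 (13.5 to 18.3) were wider than the range of any of the 8 between libraries, which reached 1.79-fold for Anxa11.

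**Figure D1:**
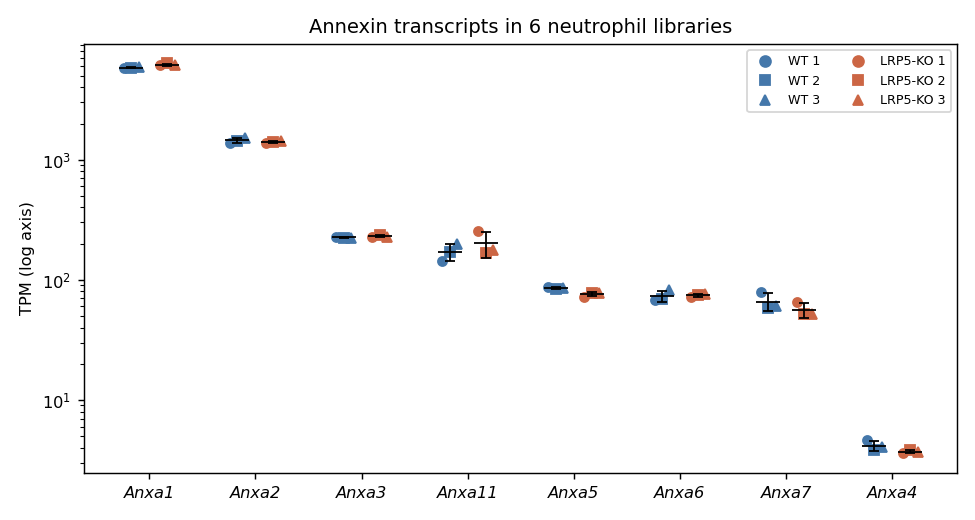
TPM of the 8 annexins, ordered by mean, on a log axis, with 1 point per library (blue WT, orange libraries labelled LRP5-KO) and the mean ± SD of each group (n = 3) in black. Anxa1, with means of 5819 TPM in WT and 6194 TPM in the libraries labelled LRP5-KO, stands above the others and Anxa4, with means of 4.15 and 3.71 TPM, below them.

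Of the remaining family members, Anxa8, Anxa10 and Anxa13 are listed at 0 in every library. Anxa9 lay between 0.474 and 0.886 TPM and did not reach the mean of 1 TPM required for testing. All 8 members reached it.

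The promoters of the annexins at the top of this order were read for a shared element. RefSeq (GRCm38.p6) gave windows around the start for 6 of the 8 members, 8 windows in all, and those of Anxa3 and Anxa6 were not analysed here. The letters TATAAA, the core of a TATA box, were read on the strand of the gene in the windows of Anxa1 and Anxa2 and were found on neither strand in those of Anxa4, Anxa5, Anxa7 and Anxa11. Of 32851 such windows over all genes, 8.32% hold these letters on the gene's strand and 13.6% on either strand. The element was looked for after the levels had been seen, and a match of letters is a description and not a binding site. The stretches around it are shown 5′ to 3′ on the strand of the gene, with the element in capitals, for Anxa1 (chr19:20390686-20390715, minus strand, element beginning 32 bases before the start) and for Anxa2 (chr9:69453654-69453683, plus strand, element beginning 17 bases before the start).
Anxa1: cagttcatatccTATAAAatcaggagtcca
Anxa2: ggatggggcgggTATAAAagccccacccag

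Differences between the groups were tested by limma for the 9775 genes whose mean reached 1 TPM, on the scale of log2(TPM + 1) with Benjamini-Hochberg adjustment over all of them. None of the 8 annexins had an adjusted p under 0.05, where 0.532% of all genes tested did, 0.266% in each direction. At an unadjusted p under 0.05 there was 1 annexin lower in the libraries labelled LRP5-KO (Anxa5), where 9.12% of all genes tested were lower, and 0 were higher, where 14.4% of all genes were (23.5% for either direction). Groups without overlap were seen for Anxa1, higher, and Anxa5, lower, in the libraries labelled LRP5-KO, against 17.4% of all genes tested for higher, 12.3% for lower and 29.7% for either. The annexins split evenly in direction, 4 higher and 4 lower, with a median log2 fold change of −0.0077, beside 0.04 for all genes tested. On the log2 scale their differences ran from −0.22 to 0.22. The median standard error over all genes tested was 0.098, and the 95% intervals below give the sizes of change that each annexin still allows.

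**Figure D2:**
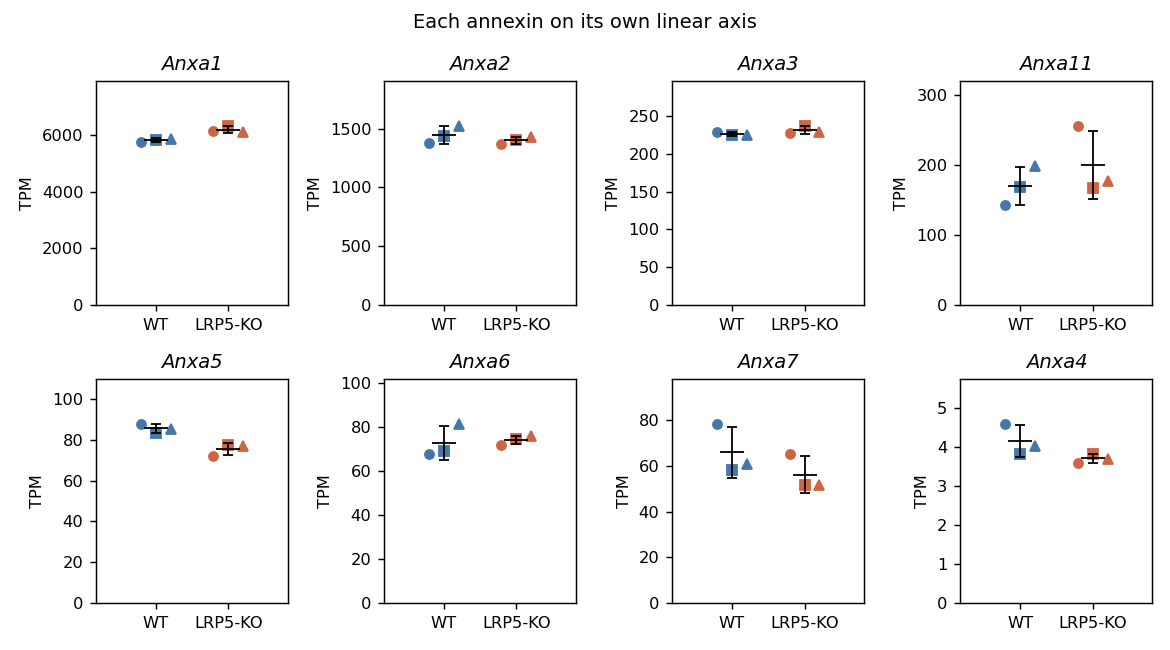
TPM of each annexin on its own linear axis from 0, with 1 point per library (circle, square and triangle for replicates 1, 2 and 3) and the mean ± SD of each group (n = 3). The groups are apart for Anxa1 and Anxa5, and LRP5-KO replicate 1 stands above the other libraries for Anxa11.

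Anxa1 (ENSMUSG00000024659.14) maps to chromosome 19, positions 20447918 to 20465434 of the minus strand (NCBIM37, the build also called mm9). It was at 5752, 5833 and 5873 TPM in WT replicates 1 to 3 and at 6157, 6324 and 6103 TPM in the libraries labelled LRP5-KO. Every library labelled LRP5-KO was thus above every WT library, and the whole range over both groups was 1.10-fold. The means were 5819 ± 61.3 TPM in WT and 6194 ± 115 TPM in the libraries labelled LRP5-KO (SD, n = 3 each), a log2 fold change of 0.09 (standard error, SE, 0.050, limma adjusted p = 0.312). The 95% interval of the difference, from −0.03 to 0.21 on the log2 scale, allows a fold from 0.982 to 1.15. A two-sided exact permutation test of the means returned 0.1, the lowest p that 3 against 3 libraries can reach. Against WT replicate 3 alone the log2 fold change was 0.08. It was lowest with median-ratio scaling, at 0.046, and ran from there to 0.18 over 17 alternative settings.

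Anxa2 (ENSMUSG00000032231.14) maps to chromosome 9, positions 69301427 to 69339602 of the plus strand (NCBIM37). It was at 1378, 1434 and 1523 TPM in WT and at 1369, 1400 and 1428 TPM in the libraries labelled LRP5-KO. The groups overlapped, with WT replicate 3 the highest library. This was a log2 fold change of −0.05 (SE 0.061, limma adjusted p = 0.674), with a 95% interval from −0.19 to 0.10. Against WT replicate 3 alone it was −0.12, without that library −0.0069 and without WT replicate 1 −0.08.

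Anxa3 (ENSMUSG00000029484.12), which is abundant in neutrophils and is found on their granules, maps to chromosome 5, positions 97222404 to 97274987 of the plus strand (NCBIM37). Its values were the steadiest of the family, at 229, 224 and 224 TPM in WT and at 227, 237 and 229 TPM in the libraries labelled LRP5-KO. The groups overlapped, and the coefficient of variation over all 6 libraries was 2.04%, against a median of 11.7% over all genes tested. Its log2 fold change was 0.03 (SE 0.057, limma adjusted p = 0.766), and the 95% interval allows a fold from 0.932 to 1.12. Without LRP5-KO replicate 2, its highest library, the log2 fold change was 0.014.

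Anxa5 (ENSMUSG00000027712.13) maps to chromosome 3, positions 36347847 to 36374765 of the minus strand (NCBIM37). It was at 87.9, 83.2 and 85.5 TPM in WT and at 72.2, 77.5 and 77.0 TPM in the libraries labelled LRP5-KO, all of which were below all WT libraries. The means were 85.5 ± 2.38 TPM in WT and 75.6 ± 2.91 TPM in the libraries labelled LRP5-KO (SD, n = 3 each, with a two-sided exact permutation p of 0.1, again the lowest possible). The log2 fold change was −0.18 (SE 0.065, limma adjusted p = 0.173, unadjusted p = 0.0284), with a 95% interval from −0.33 to −0.02. Of the 8 annexins it was the nearest to the threshold. Against WT replicate 3 alone the log2 fold change was again −0.18. Once trends with GC content and transcript length had been removed from each library it was −0.22 and passed the threshold (limma adjusted p = 0.0486), the 1 of 17 alternative settings in which any annexin did. Its adjusted p in those 17 settings ran from 0.0486 to 0.401.

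Because Anxa1 and Anxa5 lay apart in opposite directions, their ratio was also taken within each library, where the scaling of the library cancels. This pair was chosen after the values were seen. The ratio of Anxa1 to Anxa5 was 65.4, 70.1 and 68.7 in WT and 85.2, 81.6 and 79.3 in the libraries labelled LRP5-KO. The means were 68.1 ± 2.41 and 82.0 ± 3.02 (SD, n = 3 each). The groups of this ratio had to lie apart, since both members already did so in opposite directions. The separation therefore adds no evidence to that of the single genes.

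Anxa6 (ENSMUSG00000018340.13), whose core is duplicated and which is known at endosomes and the plasma membrane, maps to chromosome 11, positions 54792610 to 54846947 of the minus strand (NCBIM37). It was at 68.0, 69.0 and 81.7 TPM in WT and at 72.1, 74.6 and 75.9 TPM in the libraries labelled LRP5-KO, which lay between WT replicates 2 and 3. The log2 fold change was 0.03 (SE 0.086, limma adjusted p = 0.858), with a 95% interval from −0.17 to 0.23, and its sign depended on the setting: it was −0.14 against WT replicate 3 alone and 0.11 without WT replicate 3.

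Anxa4 (ENSMUSG00000029994.17), the least abundant member, maps to chromosome 6, positions 86686834 to 86743578 of the minus strand (NCBIM37). It was at 4.60, 3.82 and 4.02 TPM in WT and at 3.59, 3.83 and 3.70 TPM in the libraries labelled LRP5-KO. The highest library of the latter group and the lowest WT library, at 3.825 and 3.823 TPM, were nearly equal. Its log2 fold change was −0.13 (SE 0.086, limma adjusted p = 0.396), with a 95% interval from −0.33 to 0.07, and without WT replicate 1 it was −0.07. At this level the added 1 TPM makes the fold change on this scale smaller than that of the TPM values.

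Anxa7 and Anxa11, both on chromosome 14, varied most among libraries of the same label. Anxa7 (ENSMUSG00000021814.17), named synexin for its part in the aggregation of granules, maps to positions 21274483 to 21299355 of the minus strand (NCBIM37). It was at 78.6, 58.5 and 60.8 TPM in WT and at 65.5, 51.6 and 51.6 TPM in the libraries labelled LRP5-KO. Replicate 1 was the highest library within each label, and the groups overlapped through LRP5-KO replicate 1. The log2 fold change was −0.22 (SE 0.14, limma adjusted p = 0.366), with a 95% interval from −0.55 to 0.10. It was −0.09 without WT replicate 1 and −0.34 without LRP5-KO replicate 1.

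Anxa11 (ENSMUSG00000021866.15), which links RNA granules to lysosomes in other cells, maps to positions 26661669 to 26706290 of the plus strand (NCBIM37). It was at 143, 170 and 199 TPM in WT and at 257, 168 and 178 TPM in the libraries labelled LRP5-KO. LRP5-KO replicate 1 was above all others, and the other libraries of that label lay within the WT range. Its log2 fold change was 0.22 (SE 0.18, limma adjusted p = 0.483), with a 95% interval from −0.20 to 0.64. Without LRP5-KO replicate 1 it was 0.03, and against WT replicate 3 alone −0.012. The coefficient of variation over all libraries was 21.0% for Anxa11 and 16.6% for Anxa7, and the median over the 8 annexins was 7.11%. Anxa11os, an antisense gene at the same locus that was named after its values were seen, was at most 0.0229 TPM, and 99.4% to 99.5% of reads fell on the expected strand.

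**Figure D3:**
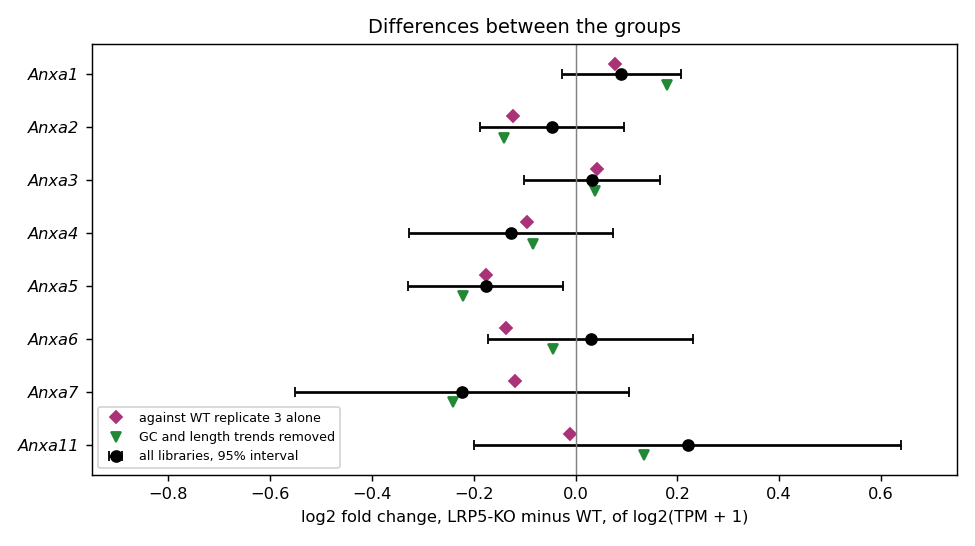
Log2 fold change of each annexin, libraries labelled LRP5-KO minus WT, on the scale of log2(TPM + 1), with the 95% interval from limma over all 6 libraries (black), the value against WT replicate 3 alone (purple diamonds) and the value after removal of GC and length trends (green triangles). The interval of Anxa5, from −0.33 to −0.02, leaves out 0, and those of the other 7 include it.

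Trends with GC content separated the libraries. Across 8769 genes, the deviation of a library from the mean of all 6 had a Spearman correlation with the GC content of the transcript of −0.61 and −0.43 in WT replicates 1 and 2 and between 0.33 and 0.44 in the other 4 libraries, a description over genes and no test. Anxa1 is a transcript of low GC content, at 43.6%, and Anxa11 of high, at 55.1%, where the median of the genes tested was 50.0%. With GC and length trends removed, the log2 fold change of Anxa1 was 0.18 (limma adjusted p = 0.138, from 0.138 to 0.683 over its 17 alternatives) and that of Anxa2 was −0.14 (limma adjusted p = 0.0666, from 0.0666 to 0.929 over its 17). That of Anxa11 was 0.13 and that of Anxa6 was −0.044. In this setting 425 of 8769 genes were called.

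The receptors and partners of the annexins were examined beside them. None of the 12 partner genes tested (of 13 listed) had a limma adjusted p under 0.05. At an unadjusted p under 0.05 3 of the 12 were higher and 2 lower in the group labelled LRP5-KO, beside 14.4% and 9.12% of all genes tested. S100a11, the partner of Anxa1, was at 9420, 7549 and 7641 TPM in WT and at 6428, 6823 and 6873 TPM in the libraries labelled LRP5-KO, which were below all WT libraries. Its log2 fold change was −0.28 (SE 0.092, limma adjusted p = 0.149). The ratio of Anxa1 to S100a11 ran from 0.611 to 0.773 in WT and from 0.888 to 0.958 in the libraries labelled LRP5-KO. These ranges had to be apart, because Anxa1 was higher and S100a11 lower without overlap, so they add no evidence.

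S100a10, the light chain that joins Anxa2 into a complex, was far less abundant than Anxa2. It was at 2.89, 3.17 and 2.90 TPM in WT and at 3.22, 4.05 and 3.94 TPM in the libraries labelled LRP5-KO, with a log2 fold change of 0.24 (SE 0.096, limma adjusted p = 0.189). There were 346 to 524 Anxa2 transcripts for each S100a10 transcript, 452 to 524 in WT and 346 to 426 in the libraries labelled LRP5-KO. How the quantification treated reads shared with near-identical copies of a gene is not given in the sources used here. S100a6, another partner of both Anxa2 and Anxa11, was at 2071 to 2620 TPM in WT and 2364 to 2715 TPM in the libraries labelled LRP5-KO, and so exceeded Anxa2 in every library.

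Sri, the partner of Anxa7, was at 189, 212 and 252 TPM in WT and at 272, 278 and 271 TPM in the libraries labelled LRP5-KO, all above WT, with a log2 fold change of 0.34 (SE 0.10, limma adjusted p = 0.138). It was called without WT replicate 3 (limma adjusted p = 0.0138, up to 0.355 in its other alternatives), the setting with 1920 calls over all genes. The ratio of Anxa7 to Sri ran from 0.241 to 0.416 in WT and from 0.186 to 0.241 in the libraries labelled LRP5-KO, with WT replicate 3 and LRP5-KO replicate 1 nearly equal. S100a4 was below 5 TPM in every library, and its log2 fold change was 0.28 (SE 0.0999, limma adjusted p = 0.163). Pdcd6 was between 78.0 and 92.3 TPM, and Anxa11 exceeded it 1.55- to 3.29-fold.

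**Figure D4:**
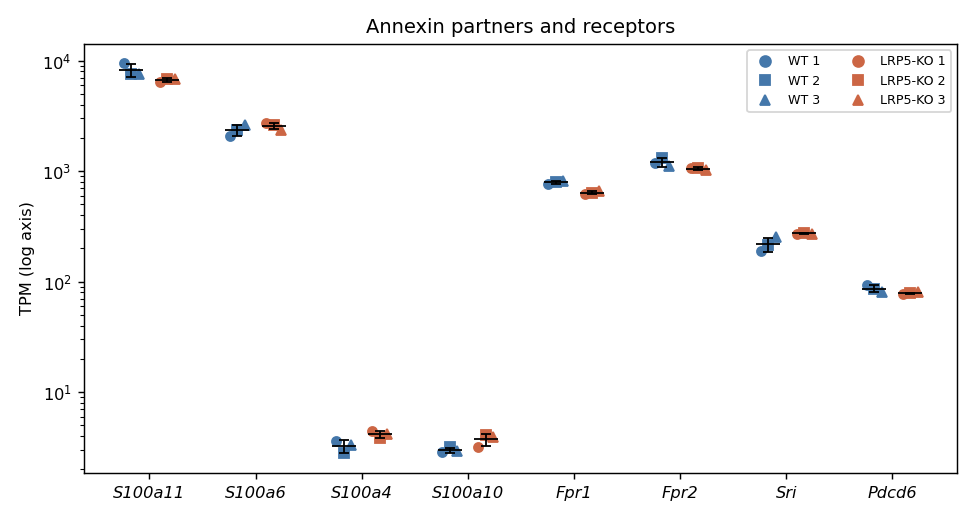
TPM of annexin partners (S100a11, S100a6, S100a4, S100a10, Sri, Pdcd6) and of the formyl peptide receptors Fpr1 and Fpr2 on a log axis, with 1 point per library and the mean ± SD of each group (n = 3). S100a10 lies at 2.89 to 4.05 TPM, where its partner Anxa2 is at 1369 to 1523 TPM, and Fpr1 is lower in each of the libraries labelled LRP5-KO than in each WT library.

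Among the receptors of Anxa1 and the proteases that cleave it, 5 of 8 listed genes were tested and 0 had a limma adjusted p under 0.05. At an unadjusted p under 0.05, 1 of the 5 was higher and 3 were lower, beside 14.4% and 9.12% of all genes tested. Fpr1 was at 770, 792 and 812 TPM in WT and at 624, 630 and 666 TPM in the libraries labelled LRP5-KO, without overlap. Its log2 fold change was −0.31 (SE 0.059, limma adjusted p = 0.0675), and it was called in 2 of 17 alternatives, with median-ratio scaling and without WT replicate 3 (limma adjusted p from 0.0209 to 0.295 over all 17). Fpr2, through which Anxa1 acts, was at 1173, 1311 and 1108 TPM in WT and at 1076, 1071 and 1013 TPM in the libraries labelled LRP5-KO, again without overlap. That was a log2 fold change of −0.18 (SE 0.076, limma adjusted p = 0.205), and it was called in 0 of 17 alternatives. There were 7.23 to 7.47 Anxa1 transcripts for each Fpr1 transcript in WT and 9.17 to 10.0 in the libraries labelled LRP5-KO. That separation follows from Anxa1 being higher and Fpr1 lower without overlap, and is no further result. The proteases Adam10 and Elane had log2 fold changes of −0.37 and 0.32 (limma adjusted p = 0.106 and 0.124), Elane from below 5 TPM in every library. Adam10 was called without WT replicate 3 (limma adjusted p = 0.0268, up to 0.328 in its other alternatives). Fpr-rs3 and Fpr-rs4 are listed at 0 in every library.

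Anxa1 is a target of the glucocorticoid receptor, so genes known to be induced by glucocorticoids were listed beside it. Of 12 listed, 11 were tested, 0 had a limma adjusted p under 0.05, and 2 were higher and 0 lower at an unadjusted p under 0.05, beside 14.4% and 9.12% of all genes tested. The receptor gene Nr3c1 was at 65.6, 39.9 and 46.8 TPM in WT and at 53.0, 41.3 and 44.3 TPM in the libraries labelled LRP5-KO, with overlap (log2 fold change −0.11, limma adjusted p = 0.741). Tsc22d3, which encodes the glucocorticoid-induced leucine zipper protein, was at 81.0, 85.1 and 88.3 TPM in WT and at 113, 111 and 117 TPM in the libraries labelled LRP5-KO, without overlap. The difference on the log2 scale was 0.42 (SE 0.065, limma adjusted p = 0.0507, just outside the threshold). It was called in 4 of 17 alternatives, both other scalings, without WT replicate 3 and with GC and length trends removed (limma adjusted p from 0.0117 to 0.221 over all 17). Per1, which is also a gene of the circadian clock, was at 22.2, 24.3 and 30.0 TPM in WT and at 36.5, 38.6 and 42.4 TPM in the libraries labelled LRP5-KO (log2 fold change 0.61, SE 0.12, limma adjusted p = 0.0693). It was called in 3 of 17 alternatives, among them without WT replicate 3 (limma adjusted p from 0.0105 to 0.262 over all 17). Klf9, at −0.18, was on the other side of 0 (limma adjusted p = 0.223), also without overlap. Of the 11 genes tested, groups without overlap were seen for 3 higher and 2 lower, beside 17.4% and 12.3% of all genes tested.

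Genes of other processes in which annexins take part gave no calls either. In the list of cytosolic phospholipase A2 and eicosanoid genes 7 of 9 were tested, 0 had a limma adjusted p under 0.05 and 1 was lower at an unadjusted p under 0.05 (9.12% of all genes tested). That gene was Ptgs2, the inducible cyclooxygenase, at 218, 192 and 173 TPM in WT and at 147, 151 and 159 TPM in the libraries labelled LRP5-KO (log2 fold change −0.34, limma adjusted p = 0.119). Ptgs2 was called without WT replicate 3 (limma adjusted p = 0.0198, up to 0.330 in its other alternatives). Alox5ap and Ptges had log2 fold changes of −0.21 and 0.21 (limma adjusted p = 0.219 and 0.232), and their groups overlapped.

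Of 16 membrane repair genes 10 were tested, 0 had a limma adjusted p under 0.05 and 1 was lower at an unadjusted p under 0.05 (9.12% of all genes tested). The log2 fold changes of 9 of the 10 were below 0 and 1 was above, with a median of −0.06. Of all genes tested 58.8% were above 0, and their median was 0.04. This split was the most one-sided among the lists of related genes. Above and below 0 were 6 and 6 partner genes, 2 and 3 receptor and protease genes and 4 and 3 eicosanoid genes. For glucocorticoid genes the counts were 7 and 4, and for phosphatidylserine genes 5 and 5. Vps4b, an ATPase that takes apart ESCRT filaments, was at 68.0, 63.8 and 56.1 TPM in WT and at 53.1, 52.6 and 54.7 TPM in the libraries labelled LRP5-KO (log2 fold change −0.22, limma adjusted p = 0.181). It was called without WT replicate 3 (limma adjusted p = 0.0260, up to 0.621 in its other alternatives). Chmp4b, a subunit of those filaments, stood at −0.13 on the log2 scale (limma adjusted p = 0.245) and Ehd1 at −0.15 (limma adjusted p = 0.294), and both were called with GC and length trends removed (limma adjusted p = 0.0454 for Chmp4b and 0.0273 for Ehd1, up to 0.517 and 0.551 in their other alternatives). Dysf, which encodes the repair protein dysferlin, was below 0.03 TPM in every library, and Syt7 is listed at 0.

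Of 14 genes for the exposure and uptake of phosphatidylserine, the lipid that Anxa5 binds, 10 were tested, 0 had a limma adjusted p under 0.05, and 3 were higher and 2 lower at an unadjusted p under 0.05 (14.4% and 9.12% of all genes tested). The flippase gene Atp11a was at 36.6, 35.9 and 41.0 TPM in WT and at 44.9, 49.6 and 45.3 TPM in the libraries labelled LRP5-KO (log2 fold change 0.29, limma adjusted p = 0.119). Tmem30a, the subunit shared by most flippases, was at 133, 109 and 74.1 TPM in WT and at 69.6, 66.5 and 65.6 TPM in the libraries labelled LRP5-KO, with WT replicate 3 near the latter (log2 fold change −0.60, limma adjusted p = 0.142). Against WT replicate 3 alone its log2 fold change was −0.14. Atp11a and Tmem30a were called without WT replicate 3 (limma adjusted p = 0.0234 and 0.0103, up to 0.362 and 0.382 in their other alternatives). Axl, a receptor for apoptotic cells, was at 1.11, 1.44 and 1.51 TPM in WT and at 1.59, 2.14 and 1.83 TPM in the libraries labelled LRP5-KO (log2 fold change 0.28, limma adjusted p = 0.189).

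Markers of maturation and of other cells were taken from the same libraries, since fewer cells of a type and less RNA per cell cannot be told apart in bulk RNA. The summed level of 5 promyelocyte genes (Mpo, Elane, Prtn3, Ctsg and Ms4a3) was 29.0 to 30.1 TPM in WT and 37.0 to 38.0 TPM in the libraries labelled LRP5-KO, and that of 8 proliferation genes 169.0 to 172.3 and 188.1 to 196.2 TPM. At an unadjusted p under 0.05, 3 of the 5 promyelocyte genes and 3 of the 8 proliferation genes were higher and 0 lower (14.4% and 9.12% of all genes tested). Ms4a3, a membrane protein gene, held the most of the promyelocyte sum, at 15.5 to 17.9 TPM in WT and 19.9 to 22.2 TPM in the libraries labelled LRP5-KO. For 8 genes of the specific granule stage the sums were 71991 to 79309 and 74932 to 79052 TPM, and for 11 genes of mature neutrophils 37426 to 41603 and 36204 to 37719 TPM. In the specific granule list 3 of 7 genes tested were higher and 0 lower at an unadjusted p under 0.05, and in the mature list 0 of 11 were higher and 4 lower. Elane, among the 3 promyelocyte genes, and Fpr1, among the 4 mature genes, were also counted above with the receptors and proteases of Anxa1. Of 12 monocyte and macrophage genes 9 were tested, and 3 were higher (Adgre1, C1qa and C1qb) and 0 lower at an unadjusted p under 0.05. The sums were 624 to 789 TPM in WT and 696 to 758 TPM in the libraries labelled LRP5-KO. Ly6c2 held the most of them, at 513 to 664 and 578 to 628 TPM. The sums, WT first, were 121 to 133 and 120 to 135 TPM for 9 B cell genes, most of it Ighm at 106 to 119 and 106 to 122 TPM. For 8 T and NK cell genes the sums were 12.4 to 14.4 and 16.2 to 17.9 TPM. Cd3d held the most of that sum, at 9.33 to 10.6 TPM in WT and 13.4 to 14.5 TPM in the libraries labelled LRP5-KO. The means of Cd3e, Cd3g, Cd2, Klrb1c and Gzma were lower in the latter group, and those of Nkg7 and Ncr1 were higher. For 9 erythroid genes the sums were 48.7 to 57.8 and 43.1 to 54.9 TPM, most of it Hbb-bs at 32.1 to 37.9 and 27.6 to 36.2 TPM. The sums were 3.86 to 5.47 and 5.94 to 6.80 TPM for 7 platelet genes. The 9 eosinophil, basophil and mast cell genes summed to 13.1 to 16.0 and 16.2 to 17.3 TPM, with the most from Siglecf at 7.31 to 8.77 and 8.04 to 8.69 TPM. The 6 progenitor genes summed to 6.56 to 7.85 and 7.79 to 8.81 TPM. Nearly all of that was Kit, at 5.86 to 7.29 and 7.30 to 8.21 TPM. Of all these markers 1 was called, the eosinophil gene Prg2 (limma adjusted p = 0.0341). It was at 0.850 to 1.16 TPM in WT and 2.33 to 3.13 TPM in the libraries labelled LRP5-KO. From its list 4 genes were tested. Siglecf, Prss34 and Mcpt8 had log2 fold changes of 0.03, 0.0037 and −0.05 (limma adjusted p = 0.848, 0.984 and 0.870). Among its genes under the filter, the means of Epx, Il5ra and Cpa3 were higher in the libraries labelled LRP5-KO and those of Fcer1a and Ms4a2 lower. Epx was at 0 to 0.0344 TPM in WT and 0.0675 to 0.141 TPM in the libraries labelled LRP5-KO. None of the listed markers was at 0 in all libraries. The part of these cells in the annexin values was not tested.

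For the annexins of smallest unadjusted p, the genes tested whose log2(TPM + 1) followed them most closely over the 6 libraries were named by Pearson's r. These are descriptions over 6 libraries that share their labels and GC trends. For Anxa5 they were Gm14548 (r = 0.998), the chaperone gene Hspa8 (r = 0.988) and Zc3h7a (r = 0.987). Hspa8 was at 347, 300.0 and 303 TPM in WT and at 220, 257 and 258 TPM in the libraries labelled LRP5-KO. For Anxa1 they were Cntrob (r = 0.995), H2-Q7 (r = 0.994) and Paip2b (r = 0.992), each below 4 TPM in every library. Within the family, Anxa5 followed Anxa4 most closely (r = 0.85), and Anxa2 and Anxa6 had an r of 0.75. Anxa5 ran opposite to Anxa1 (r = −0.84), a pair whose groups already lay apart in opposite directions.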

How the data were processed

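Neutrophil RNA was sequenced in 6 libraries, 3 of each label. The labels name a Percoll gradient and an mRNA kit. The paper's methods also give a Percoll gradient for preparing bone marrow neutrophils. For the RNA sequencing they describe a sort on CD11b and Ly6G, single-end reads and a stranded kit for total RNA. The authors aligned reads to mm9, name DESeq2, and deposited TPM. The tool behind the TPM is not given in the sources used here. A deposited read summary holds counts of reads per library, percent of reads by class, a ratio for the bias at transcript ends and a coverage variation score. Since TPM holds no counts, the depth behind a single gene is unknown, and its error comes only from the spread between libraries.

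Genes reaching a mean of 1 TPM were tested with limma 3.58.1 (R 4.3.3) on log2(TPM + 1), where changes of low genes come out smaller, using a mean-variance trend, no covariates and Benjamini-Hochberg adjustment. Exact permutation tests used scipy 1.17.1. Coordinates, transcript length and GC content came from GENCODE M1 (NCBIM37) by identifier without version and covered 89.7% of the genes tested. GC and length trends were natural splines with 5 degrees of freedom each, fitted per library. Where a symbol had several rows the most abundant was used (Itgam). The members and gene lists were chosen with earlier results of these data known. Genes named are all annexins, Lrp5, Lyz2, S100a10, S100a11, Fpr1, Fpr2, Nr3c1, the 3 of smallest p in each list of related genes, and the 3 most like each of the 2 annexins of smallest p. S100a6, Pdcd6, Dysf, Syt7, Ly6g, Ms4a3, Ly6c2, Adgre1, C1qa, C1qb, Ighm, Hbb-bs, Kit and Anxa11os were named after their values were seen. So were the T and NK cell genes and the eosinophil, basophil and mast cell genes.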

Additional observations from a re-analysis of the deposited data

How the results depend on the processing

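Over all genes 52 were called, and over the 8 annexins 0. The number over all genes was 3 without a filter, 29 under a filter at a mean of 5 TPM, 98 after rescaling without mitochondrial and the 20 most abundant genes (71 of them higher, or 72.4% against 50%), 4 with the replicate block, 6 with the ribosomal share as covariate, 6 against WT replicate 3 alone (the lone WT library is assumed to vary like the other group), 425 with GC and length trends removed (36.9% higher) and 4 with that removal and the replicate block together. With each library left out it ran from 2 to 1920: 18 and 3 without WT replicates 1 and 2, 1920 without WT replicate 3, and 2, 15 and 2 without LRP5-KO replicates 1 to 3. Among the annexins the number was 0 in each of these, except 1 (Anxa5) with GC and length trends removed. With that removal and the block it was 0 again. Of 135 values of single annexins under an alternative, 125 kept their direction and side of the threshold. The 9 that changed sign were Anxa3 with median-ratio scaling (−0.012), Anxa11 against WT replicate 3 alone (−0.012) and Anxa6 with median-ratio scaling (−0.013), without WT replicate 1 (−0.017) or 2 (−0.0064), with the ribosomal covariate (−0.086), against WT replicate 3 alone (−0.14) and with trends removed, with or without the block (−0.044). With each library left out Anxa6 ran from −0.017 to 0.11. The cause was not tested. Same-numbered libraries had correlations of deviations of 0.23, −0.0075 and 0.13, and not every library correlated best with its own number. From 3 libraries of each label these values cannot settle whether the numbers pair the samples. With the replicate block no annexin was called (lowest limma adjusted p = 0.157, for Anxa7). Anxa4 had no value under the filter at 5 TPM.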
